A study of Arabidopsis thaliana with 6 samples.

Results

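The genes described here make, break down, release, move and perceive the plant hormone abscisic acid. They are 44 of the 33602 genes in the deposited table and were taken by locus code: 14 PYR/PYL receptors, 10 SnRK2 protein kinases, 5 transcription factors of the ABF/ABI5 group, 7 genes of synthesis, 4 of breakdown, 1 of release from a stored form and 3 of transport. The clade A phosphatases of the same pathway are not members and are given only for comparison. Leaf transcripts of 25-day-old Arabidopsis thaliana were measured by sequencing of messenger RNA libraries in 3 samples of the pub2pub4 double mutant, labelled mock, and 3 samples of the wild type, also labelled mock. PUB2 and PUB4 encode U-box ubiquitin ligases. The sources used here do not give the mutant alleles, the accession of the wild type or the nature of the mock treatment. All plants grew under 16 h of light and 8 h of dark. The labels do not say whether replicates were separate plants, so the p-values cover only the spread among these libraries, part or all of which may be technical.

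Abscisic acid is made from carotenoids, with 9-cis-epoxycarotenoid dioxygenases (NCED) at the committed step, and is inactivated by 8'-hydroxylases of the CYP707A family or by coupling to glucose. A PYR/PYL receptor that has bound the hormone holds a clade A phosphatase inactive, which frees SnRK2 kinases to phosphorylate ABF factors and ion channels. In leaves the pathway is best known for stomatal closure and for gene responses to drought and cold.

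The libraries held 20506882 to 20732799 expected counts, which are estimated reads per gene. Levels are given as CPM, that is, counts scaled to library size with TMM factors for composition, and levels of different genes are compared only as CPM per kilobase of the deposited gene length. PUB2 was at 0.382, 0.543 and 0.588 CPM in the 3 mutant libraries, against 9.40, 10.3 and 7.48 CPM in wild type. PUB4 was at 2.39, 3.45 and 3.82 CPM in the mutant, against 20.4, 23.6 and 19.0 CPM in wild type. Libraries of the same genotype stood apart: on the second principal component (24.4% of variance) pub2pub4 1 was at 31.8 and pub2pub4 3 at -38.8, while on the first (45.2%) the values of wild type 1, 2 and 3 were -31.4, -37.0 and -17.7. As leaf markers, 5 mesophyll genes, among them RBCS1A and LHCB1.3, summed to 26236 to 31195 CPM per kilobase over the mutant libraries and 29385 to 31059 in wild type. Seed markers summed to at most 0.119 CPM per kilobase in any library, with OLEO1 and EM6 at 0. Flower markers summed to 0.175 to 0.369 CPM per kilobase in the mutant and 0.393 to 1.53 in wild type.

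In pub2pub4 leaves the abscisic acid exporter gene ABCG25 (AT1G71960), the 8'-hydroxylase gene CYP707A2 (AT2G29090), the kinase gene SRK2E (OST1, AT4G33950) and the factor genes ABF2 (AT1G45249) and ABF3 (AT4G34000) were higher than in wild type. The receptor gene PYL4 (AT2G38310) was lower. The changes were between 1.44-fold (SRK2E) and 2.24-fold (ABF3) upward, and PYL4 was at 0.668 of its wild-type level. A gene was called changed at an adjusted p under 0.05 in edgeR's quasi-likelihood test, with Benjamini-Hochberg adjustment over the 19019 genes tested. Of the 44 members, 37 had enough counts to be tested. Of these 5 rose, 1 fell and 31 did not pass, so that 16.2% were called, against 4.46% of all tested genes (2.49% higher and 1.97% lower). The median log2 fold change of the tested members was 0.00, with values from -1.06 to 1.54, and that of all tested genes was 0.01. Libraries of the 2 genotypes did not overlap for 13 of the 37 (8 higher and 5 lower in the mutant), or 35.1%, against 26.2% of all tested genes (13.4% higher and 12.7% lower). The calls depended on single libraries: without pub2pub4 2, or without wild type 2, edgeR called 0 members, with 11 and 10 at an unadjusted p under 0.05, and called 0.474% and 0.448% of all genes. An unadjusted p under 0.05 was common in this comparison. With all libraries edgeR gave it to 11 of the 37 members and to 3740 of the 19019 genes. Its share of all genes was not counted with a library left out. With all libraries DESeq2 called 5 members higher and 2 lower, and 7.22% of all genes.

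**Figure D1:**
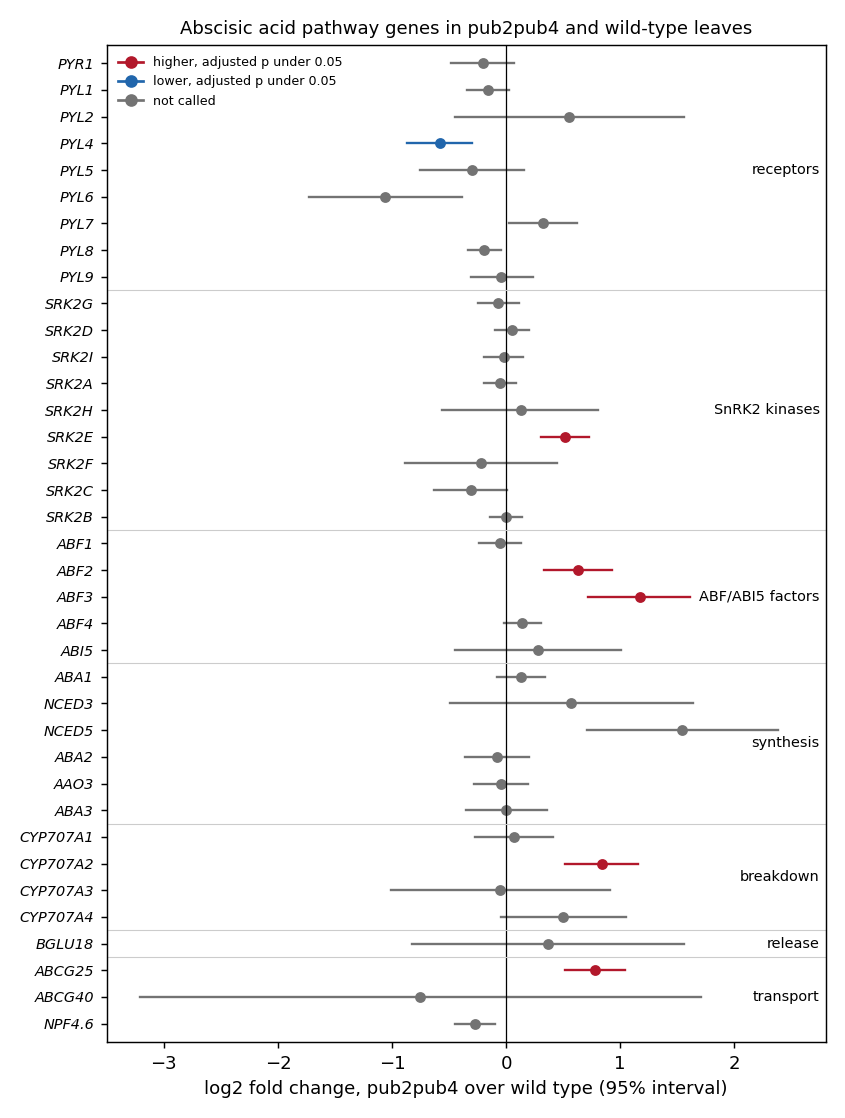
Log2 fold change of each of the 37 tested members, pub2pub4 over wild type, grouped by role. Points are edgeR estimates, lines are 95% intervals derived from the standard error, and colour marks the 5 genes called higher and the 1 called lower. The called genes lie between -0.58 (PYL4) and 1.17 (ABF3). NCED3, BGLU18, ABCG40 and CYP707A3 have wide intervals, whereas several SnRK2 kinases have narrow ones around 0.

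ABF factors bind the abscisic acid response element, whose core is ACGTG, so the 300 bases upstream of each annotated gene start were searched for it. Sequences and starts are those of the RefSeq TAIR10.1 genome and annotation, and all 44 members matched by locus code. The letters ACGTG were found on either strand in 19 of 44 member windows (43.2%), against 25.8% of 26711 windows of protein-coding genes in the table. The palindrome CACGTG, which contains ACGTG once on each strand, was found in 9 member windows (20.5%), against 7.2% of all windows. The cold- and drought-response cores ACCGAC and GCCGAC were found in 3 and 2 member windows (6.8% and 4.5%), against 5.5% and 3.0% of all windows. Among the 6 called genes the windows of ABCG25 and ABF3 held ACGTG, with 4 matches and 1 match, and those of CYP707A2, SRK2E, ABF2 and PYL4 held none of the 4 motifs. ABI5, a factor gene with few transcripts in these leaves, had the most matches of any member, with 7. Each CACGTG counts as 2 matches, and the ABCG25 window held 1 CACGTG and the ABI5 window 3. A match is a description of letters and says nothing about binding in these samples. The windows of ABCG25 (chr1:27088249-27088548, minus strand), ABF3 (chr4:16295034-16295333, plus strand), CYP707A2 (chr2:12499724-12500023, minus strand) and ABI5 (chr2:15207637-15207936, minus strand) are given 5' to 3' on the gene's strand, ending at the base before the gene start. They show 2 risen genes with the motif, a risen gene without it and the window richest in it, with ACGTG on either strand in capitals.
ABCG25: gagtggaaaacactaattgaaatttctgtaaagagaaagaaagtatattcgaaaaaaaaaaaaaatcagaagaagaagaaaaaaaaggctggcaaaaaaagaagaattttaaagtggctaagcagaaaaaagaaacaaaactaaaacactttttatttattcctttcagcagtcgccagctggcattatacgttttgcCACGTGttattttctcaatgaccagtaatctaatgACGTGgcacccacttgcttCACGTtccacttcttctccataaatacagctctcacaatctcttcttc
ABF3: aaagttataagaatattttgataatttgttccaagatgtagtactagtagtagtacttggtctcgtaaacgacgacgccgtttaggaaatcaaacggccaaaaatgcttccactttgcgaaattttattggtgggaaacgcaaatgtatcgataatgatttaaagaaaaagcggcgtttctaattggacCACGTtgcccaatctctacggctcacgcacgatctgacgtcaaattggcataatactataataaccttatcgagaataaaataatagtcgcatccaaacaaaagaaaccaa
CYP707A2: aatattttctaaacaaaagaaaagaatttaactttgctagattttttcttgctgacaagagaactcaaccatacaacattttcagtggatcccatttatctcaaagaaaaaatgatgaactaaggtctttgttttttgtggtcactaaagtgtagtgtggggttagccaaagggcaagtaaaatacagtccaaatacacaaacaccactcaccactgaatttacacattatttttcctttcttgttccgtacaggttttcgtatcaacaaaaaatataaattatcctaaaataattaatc
ABI5: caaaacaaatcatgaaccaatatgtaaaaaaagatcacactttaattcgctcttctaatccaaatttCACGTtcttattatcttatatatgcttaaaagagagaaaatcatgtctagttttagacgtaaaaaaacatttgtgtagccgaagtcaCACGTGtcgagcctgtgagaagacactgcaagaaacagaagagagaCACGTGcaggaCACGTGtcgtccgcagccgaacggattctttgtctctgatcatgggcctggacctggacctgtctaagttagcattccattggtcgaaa

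Synthesis genes were not called in either direction by edgeR or DESeq2, and the hormone itself was not measured. Of 7 genes 6 were tested, with a median log2 change of 0.07 and 1 unadjusted p under 0.05, that of NCED5. NCED3 (AT3G14440), the drought-induced dioxygenase gene of leaves, was at 20.1, 45.7 and 60.4 CPM in pub2pub4 and at 23.9, 28.6 and 32.2 CPM in wild type. Of the mutant libraries, 2 lay above every wild-type library and pub2pub4 1 lay below them all. The log2 change of NCED3 was 0.57 ± 0.42 (SE, adjusted p 0.525), with a 95% interval of -0.49 to 1.64. Without pub2pub4 1 it was 0.91 and passed the threshold (adjusted p 0.0480), in the only 1 of 6 fits that each left out a library to do so. Without pub2pub4 3 it was 0.22 (adjusted p 0.793). NCED5 (AT1G30100), a second dioxygenase gene, was at 0.669, 0.740 and 1.03 CPM in the mutant and at 0.241, 0.295 and 0.288 CPM in wild type. Its genotypes did not overlap, but the level rests on 67 counts over the 6 libraries, and the change of 1.54 ± 0.36 on the log2 scale (SE) narrowly missed the threshold (adjusted p 0.0540). NCED9, known for its role in seeds, was at 0.143, 0.247 and 0 CPM in the mutant and at 0 in each wild-type library, too low to test.

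Genes of the other synthesis steps did not pass the test. ABA1 encodes zeaxanthin epoxidase, which acts upstream of the dioxygenases, and averaged 114 ± 11.9 CPM in pub2pub4 and 104 ± 6.68 CPM in wild type (SD, n = 3 each). ABA2, for the short-chain dehydrogenase that makes abscisic aldehyde, averaged 13.0 ± 1.26 CPM in the mutant and 13.8 ± 1.87 CPM in wild type. For AAO3, which encodes the oxidase of the last step, the log2 change was -0.04 (95% interval -0.28 to 0.19). For ABA3, which provides its molybdenum cofactor in active form, it was 0.00 (-0.35 to 0.36). For ABA1 and ABA2 the intervals were -0.08 to 0.34 and -0.36 to 0.20. A per-length sum over the 7 synthesis genes was 79.0 to 92.8 CPM per kilobase in mutant libraries and 71.9 to 76.9 in wild type, of which ABA1 made up 56.6 ± 6.26% and 58.2 ± 3.63% (SD, n = 3 each).

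BGLU18 (AT1G52400) encodes a beta-glucosidase of the endoplasmic reticulum that can release the hormone from its glucose ester, and it is also a major protein of ER bodies. It was at 1757, 691 and 791 CPM in pub2pub4 and at 978, 1004 and 526 CPM in wild type. The genotypes overlapped, with pub2pub4 1 the highest library and wild type 3 the lowest. The log2 change was 0.37 (95% interval -0.82 to 1.56, adjusted p 0.729), and without pub2pub4 1 it was -0.17.

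Of the 4 genes for 8'-hydroxylases, which start the breakdown of abscisic acid, CYP707A2 rose and the other 3 did not pass. CYP707A2 (chromosome 2, 12494826 to 12499723, minus strand, TAIR10.1), known best for removing the hormone in imbibed seeds, was at 9.89, 10.7 and 13.8 CPM in pub2pub4, against 6.41, 6.25 and 6.57 CPM in wild type. Every mutant library lay above every wild-type library, and the wild-type values were close together. The log2 change was 0.84 ± 0.14 (SE, adjusted p 0.0213), and leaving out each library in turn kept the call in 3 of 6 fits. Per length CYP707A2 made up 46.0 ± 3.17% of the summed hydroxylase level in the mutant and 34.0 ± 4.56% in wild type (SD, n = 3 each). CYP707A3 (AT5G45340), a hydroxylase gene induced by dehydration and rehydration, was at 2.39, 5.23 and 5.98 CPM in pub2pub4 and at 2.94, 6.35 and 4.79 CPM in wild type. Its spread within each genotype left a 95% interval of -1.01 to 0.91 for the log2 change. CYP707A1 differed by 0.07 (-0.27 to 0.41). CYP707A4 was at 1.83 to 2.44 CPM in the mutant and 1.18 to 1.73 CPM in wild type, without overlap, but its change of 0.50 ± 0.24 (SE) did not pass (adjusted p 0.289).

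ABCG25 (chromosome 1, 27082394 to 27088248, minus strand, TAIR10.1), which exports abscisic acid from cells and is known to be transcribed mainly in vascular tissue, had the smallest p of all members. It was at 12.9, 12.5 and 14.4 CPM in pub2pub4, against 8.48, 6.89 and 7.72 CPM in wild type. The genotypes were well apart and the libraries of each close together. The gene rose by 0.78 ± 0.11 on the log2 scale (SE, adjusted p 0.0149), or 1.72-fold, and kept the call in 4 of 6 fits that each left out a library. It lost the call without pub2pub4 2 (adjusted p 0.0546) and without wild type 2 (0.0684). Vascular markers, from SUC2 and SWEET11 of phloem to XCP1 and IRX3 of xylem, summed to 448 to 454 CPM per kilobase in the mutant and 434 to 502 in wild type. The largest parts were SWEET11, SWEET12 and SUC2, with mutant means of 223, 111 and 92.2. The sum says little about xylem, with XCP1 at 7.85 and IRX3 at 1.91. Of the 7 markers 0 were called by edgeR or DESeq2, with 0 at an unadjusted p under 0.05. Their log2 changes were -0.30 to 0.10, of which 5 were negative and 2 positive. In whole leaves, fewer cells of a type and less RNA per cell cannot be told apart.

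Neither importer gene was called. NPF4.6 (AIT1, AT1G69850), a transporter of the nitrate and peptide transporter family, was at 30.1, 31.8 and 27.5 CPM in pub2pub4 and at 34.8, 37.2 and 36.0 CPM in wild type. All mutant libraries were lower, and the change of -0.27 ± 0.08 (SE) did not pass (adjusted p 0.0858). ABCG40 (AT1G15520), a plasma membrane importer also induced in defence, was at 5.30, 6.36 and 0.883 CPM in the mutant and at 4.00, 14.8 and 2.30 CPM in wild type. It varied more within a genotype than between them, with a 95% interval of -3.21 to 1.71 for the log2 change, and changed sign without wild type 2 (0.40).

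**Figure D2:**
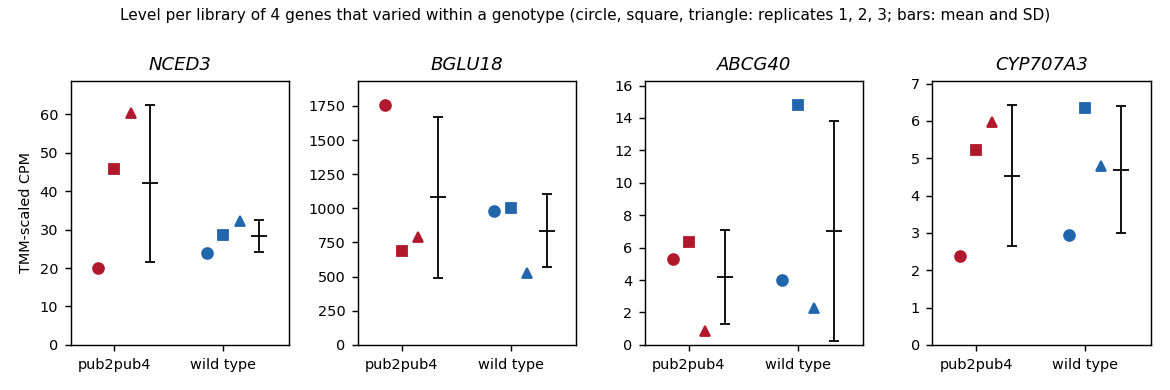
TMM-scaled CPM of NCED3, BGLU18, ABCG40 and CYP707A3 in each library, with pub2pub4 on the left and wild type on the right. Marker shapes are replicates, and bars give the mean and SD of 3 libraries. In all 4 genes the genotypes overlap, and single libraries stand off, such as pub2pub4 1 at 1757 CPM of BGLU18 and wild type 2 at 14.8 CPM of ABCG40.

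Among the receptors PYL4 fell, 8 tested genes did not pass and 5 were too low to test. PYL4 (chromosome 2, 16049918 to 16051356, plus strand, TAIR10.1), a receptor known as a monomer, was at 30.2, 33.7 and 26.2 CPM in pub2pub4, against 38.4, 50.2 and 46.4 CPM in wild type. Each mutant library lay below each wild-type library. The log2 change was -0.58 ± 0.12 (SE, adjusted p 0.0420), and the call was lost whichever library was left out, with adjusted p-values of up to 0.153. PYL6 (AT2G40330), a close relative of PYL4, was at 1.96, 2.52 and 1.67 CPM in the mutant and at 2.65, 5.07 and 5.13 CPM in wild type. Its change was larger than that of PYL4, at -1.06 ± 0.29 (SE), but did not pass in edgeR (adjusted p 0.0838). DESeq2 called it (-1.07, adjusted p 0.0291). PYL5, another gene of that subgroup, differed by -0.30 (95% interval -0.75 to 0.16).

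Per length, PYL8 led the receptors in both genotypes, at 51.8 CPM per kilobase in pub2pub4 and 58.9 in wild type, followed by PYR1 at 48.2 in pub2pub4 and 55.4 in wild type. The libraries of these neighbours overlapped in both genotypes, and in the mutant those of PYR1 and PYL7 overlapped too. The next place was held by PYL7 in the mutant (41.2 CPM per kilobase, with PYL4 at 27.2) and by PYL4 in wild type (40.7, with PYL7 at 32.9), and the libraries of those 2 genes did not overlap within either genotype. PYL4 made up 12.9 ± 1.56% of the summed receptor level in the mutant and 17.2 ± 1.51% in wild type, and PYL7 made up 19.5 ± 3.43% in the mutant and 14.0 ± 0.851% in wild type (SD, n = 3 each). PYL7 itself was at 39.4, 47.0 and 57.6 CPM in pub2pub4 and at 37.7, 37.8 and 39.5 CPM in wild type, where only the lowest mutant library overlapped. Its change of 0.32 ± 0.13 (SE) did not pass (adjusted p 0.213). The value of PYL7 is uncertain, since its span overlaps AT4G01030 on the other strand over 571 bases and its expected counts were not whole in 5 of 6 libraries.

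PYL8 (AT5G53160), a receptor with a known part in root responses, was at 61.8, 59.3 and 62.7 CPM in pub2pub4 and at 67.6, 68.4 and 73.1 CPM in wild type. The genotypes did not overlap, and the change of -0.19 ± 0.06 (SE) did not pass (adjusted p 0.143). For PYR1 and PYL1, known as dimeric receptors, the log2 changes were -0.20 and -0.16 (adjusted p 0.404 and 0.328). PYL9 differed by -0.04, and PYL2, at no more than 1.03 CPM, by 0.55. Of the 9 tested receptors 7 had negative fold changes, with a median of -0.19, against 9226 of all 19019 tested genes with negative changes. Of these 7 only PYL4 was called by edgeR. PYL12 and PYL13 had no count in any library, which allows up to 0.148 CPM (3 counts in the library where that is most), and PYL3, PYL10 and PYL11 had 1 to 3 counts over all libraries. A sum over the 14 receptors came to 205, 215 and 213 CPM per kilobase in pub2pub4 and 216, 240 and 252 in wild type.

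**Figure D3:**
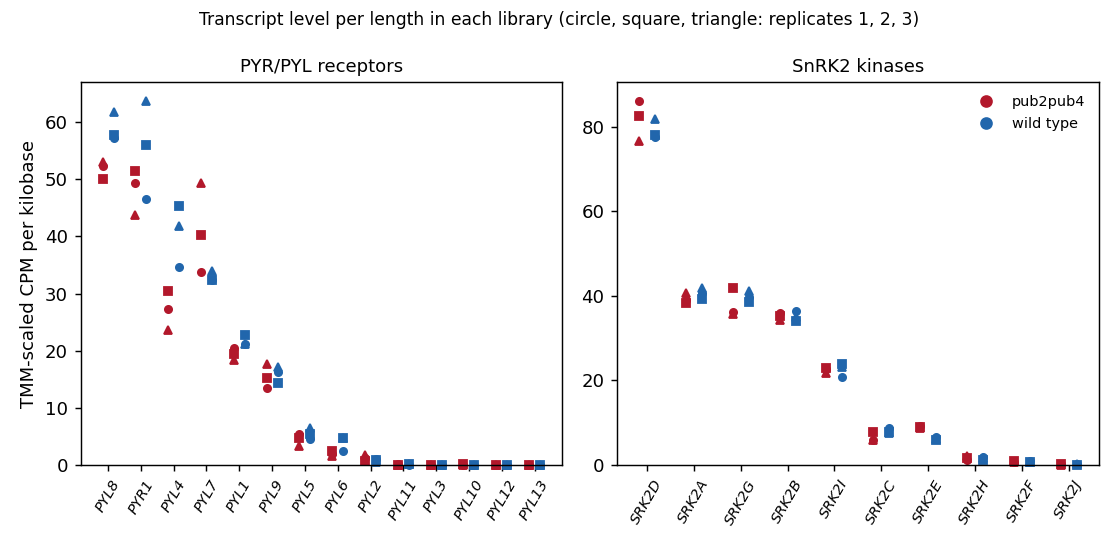
Level of each PYR/PYL receptor gene (left) and SnRK2 kinase gene (right) in CPM per kilobase, ordered by the wild-type mean, with the 3 pub2pub4 libraries left of the 3 wild-type libraries for each gene. PYL4 is lower in the mutant (27.2 against 40.7 CPM per kilobase on average), 5 receptors lie at or near 0, and SRK2D leads the kinases in both genotypes.

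Of the 10 SnRK2 kinase genes 9 were tested, SRK2E rose and 8 did not pass the test. SRK2E (chromosome 4, 16271745 to 16274825, plus strand, TAIR10.1) is the kinase OST1 (open stomata 1), which acts in guard cells on the anion channel SLAC1. It was at 13.3, 13.0 and 12.7 CPM in pub2pub4, against 9.59, 8.52 and 9.06 CPM in wild type. Values within a genotype were close, and the genotypes were clearly apart. The gene rose by 0.52 ± 0.09 on the log2 scale (SE, adjusted p 0.0234). Of 6 fits that each left out a library, 1 kept the call, and the log2 change was between 0.48 and 0.57 in them. Guard cell markers (MYB60, FAMA, KAT1, SLAC1 and HT1) summed to 35.4, 36.0 and 40.0 CPM per kilobase in pub2pub4 and 37.5, 41.4 and 38.4 in wild type. Of the 5, edgeR called 0 and 1 had an unadjusted p under 0.05, the potassium channel gene KAT1, with a change of -0.46 (adjusted p 0.0512). DESeq2 called 1 of the 5 lower, and 7.22% of all genes in either direction.

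SRK2D (AT3G50500) and SRK2I (AT5G66880), the other kinases of the subgroup that abscisic acid activates most strongly, did not pass the test. SRK2D was at 127, 122 and 113 CPM in pub2pub4 and at 114, 115 and 121 CPM in wild type, and SRK2I at 31.8 to 33.6 CPM in the mutant and 30.6 to 35.0 CPM in wild type. Their log2 changes were 0.05 (95% interval -0.10 to 0.20) and -0.02 (-0.19 to 0.15). The differences between SRK2E and these 2 genes were not tested. Per length SRK2D made up 34.9 ± 1.33% of the kinase sum in the mutant and 33.8 ± 0.511% in wild type, whereas SRK2E made up 3.81 ± 0.0763% and 2.66 ± 0.143% (SD, n = 3 each). SRK2E stood above SRK2C in the mutant, at 8.93 against 6.44 CPM per kilobase, and below it in wild type, at 6.22 against 7.98, without overlap of libraries in either genotype. SRK2C, a kinase activated by osmotic stress, was at 8.64, 11.5 and 8.58 CPM in pub2pub4 and at 13.1, 11.4 and 11.1 CPM in wild type, and its change of -0.31 did not pass (adjusted p 0.274). The level of SRK2C, and with it this order, is uncertain, since the gene overlaps AT1G78280 on the other strand over 169 bases, a gene with 669.8 expected counts on average, and its value was not whole in 1 library. SRK2A, SRK2B and SRK2G, kinases of the subgroup that responds to osmotic stress and not to the hormone, had log2 changes of -0.05, 0.00 and -0.07. SRK2H and SRK2F, both at no more than 3.09 CPM, differed by 0.13 and -0.22, and SRK2J was too low to test. SRK2H is likewise uncertain, with 382 bases shared with AT5G63640 on the other strand, which averaged 460.2 expected counts.

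ABF3 and ABF2, basic leucine zipper factors that SnRK2 kinases phosphorylate and that switch on genes with the ACGTG element, rose in the mutant. ABF3 (chromosome 4, 16295334 to 16298285, plus strand, TAIR10.1; overlapping AT4G34020 by 24 bases) was at 40.2, 53.0 and 61.0 CPM in pub2pub4, against 26.6, 18.7 and 23.5 CPM in wild type. Every mutant library lay well above every wild-type library. The log2 change was 1.17 ± 0.19 (SE, adjusted p 0.0263), and 2 of 6 fits that each left out a library kept the call. With the replicate number fitted as a block ABF3 did not pass (adjusted p 0.0569). ABF2 (AREB1; chromosome 1, 17165125 to 17167924, minus strand, TAIR10.1) was at 29.0, 35.0 and 37.8 CPM in pub2pub4, against 23.1, 18.5 and 24.1 CPM in wild type. The genotypes did not overlap, and pub2pub4 1 was again the mutant library nearest to wild type. Its log2 change was 0.63 ± 0.13 (SE, adjusted p 0.0380), and 1 of the 6 fits that each left out a library kept the call.

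The remaining factors did not pass. ABF4 was at 23.5, 24.5 and 24.5 CPM in pub2pub4 and at 21.1, 21.1 and 23.4 CPM in wild type. That is a log2 change of 0.14 ± 0.07 (SE, adjusted p 0.330) without overlap. The level of ABF4, and with it the factor sum below, is uncertain. Its span overlaps AT3G03815 on the other strand over 2516 bases, and that gene is not in the deposited table. ABF1, known to respond to cold, differed by -0.05 (95% interval -0.24 to 0.13). The level of ABF1, and with it its share below, is uncertain. The gene overlaps AT1G49730 on the other strand over 123 bases, a gene with 461.1 expected counts on average, and its value was not whole in 1 library. ABI5, which acts mainly in seeds and seedlings, was at 0.588 to 0.691 CPM in the mutant and 0.431 to 0.626 CPM in wild type. Per length ABF3 made up 37.0 ± 3.13% of the summed factor level in pub2pub4 and 24.1 ± 2.37% in wild type, while ABF1 made up 18.2 ± 1.51% in the mutant and 27.3 ± 1.09% in wild type (SD, n = 3 each).

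**Figure D4:**
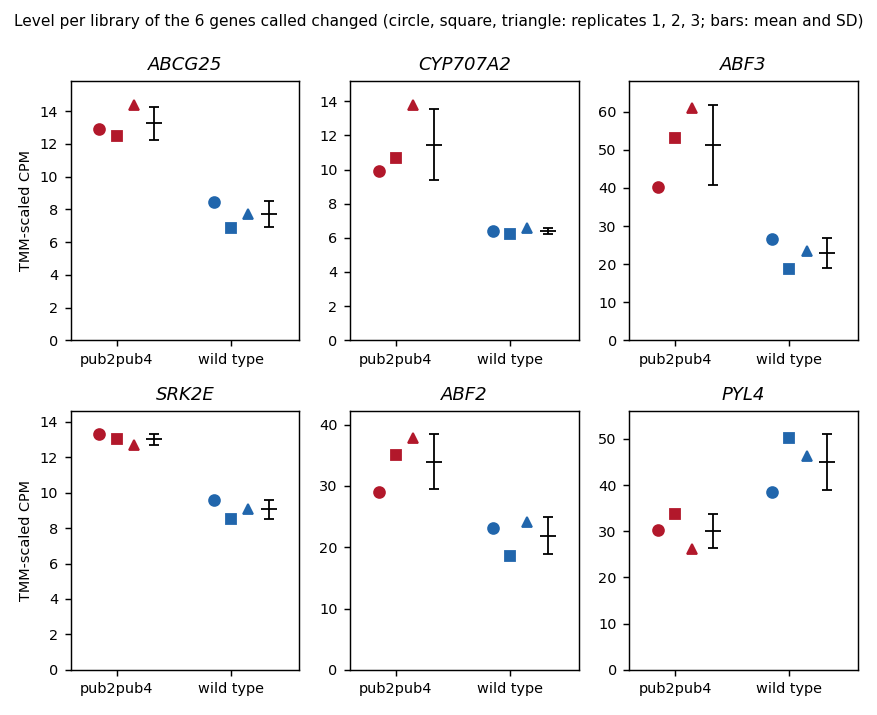
TMM-scaled CPM in each library of the 6 called genes, with pub2pub4 on the left and wild type on the right of each panel. Marker shapes are replicates, and bars give the mean and SD of 3 libraries. No mutant library overlaps a wild-type library in any panel, and PYL4 is the gene that is lower in the mutant.

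Within the mutant, pub2pub4 1 was the lowest library for NCED3, ABF3, ABF2, CYP707A2 and PYL7, and pub2pub4 3 the highest for each of them. The order was the reverse in other members, such as PYL1, PYL5, SRK2D, SRK2B, AAO3, ABA3 and the called SRK2E. Over the mutant libraries ABCG25 was at 12.5 to 14.4 CPM and SRK2E at 12.7 to 13.3 CPM. Libraries pub2pub4 1 and pub2pub4 3 also lay farthest apart on the second principal component, and the part of that difference in the values was not tested.

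Other genes of the pathway, in lists drawn up with earlier results of these data known, were counted in the same fit. In that fit 2.49% of all tested genes rose and 1.97% fell. Of 9 clade A phosphatase genes, whose products the receptors hold inactive, 7 were tested, 4 rose (ABI2, HAB1, HAB2 and HAI2), 0 fell and 3 did not pass, with a median log2 change of 1.05. DESeq2 called all 7 higher, and 7.22% of all genes in either direction. The level summed over all 9 was 258, 397 and 421 CPM per kilobase in pub2pub4 and 172, 139 and 208 in wild type. That is 1.26, 1.85 and 1.98 times the summed receptor level in the mutant libraries and 0.798, 0.582 and 0.826 times in wild type. The largest parts of the sum were PP2CA (means of 146 in the mutant and 76.5 in wild type) and ABI1 (102 and 51.3). Neither was called by edgeR (adjusted p 0.150 and 0.0562). Of 10 further genes of synthesis, conjugation and transport 8 were tested, and 1 rose. It was BGLU33, a vacuolar beta-glucosidase gene that acts on the glucose ester, at 66.2, 56.2 and 68.3 CPM in pub2pub4 and 45.1, 38.5 and 40.5 CPM in wild type (log2 0.62 ± 0.09 SE, adjusted p 0.0166). UGT71B6, for a glucosyltransferase that couples the hormone to glucose, was at 0.735 to 1.23 CPM in the mutant and 2.02 to 2.31 CPM in wild type. Its change of -1.09 ± 0.25 (SE) missed the threshold (adjusted p 0.0525). DESeq2 called 1 gene of this list higher and 1 lower.

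Of 8 further regulators 6 were tested, and AFP1 and AFP3, which encode ABI5-binding proteins that restrain the response, rose by 2.47 ± 0.41 and 1.66 ± 0.18 on the log2 scale (SE, adjusted p 0.0319 and 0.00883). DESeq2 called 3 of these regulators higher. AFP1 was at 7.93, 15.3 and 13.3 CPM in pub2pub4 and at 1.35, 1.72 and 3.50 CPM in wild type. ABI3 and ABI4, seed factors, had no count in any library. The 11 response genes included RD29A, RD29B and RAB18 as well as the cold-regulated COR47 and KIN2. Of them 7 rose, 0 fell and 4, among them RAB18 (adjusted p 0.0586), did not pass, with a median log2 change of 1.67. DESeq2 called 11 higher. Over all tested genes edgeR called 2.49% higher, and DESeq2 called 7.22% in either direction. RD29B, a late embryogenesis abundant protein gene with paired response elements in its promoter, was at 0.907, 1.63 and 0.588 CPM in the mutant and at 0.193, 0.148 and 0.144 CPM in wild type (log2 2.64 ± 0.52 SE, adjusted p 0.0331). Its level rests on 74 counts over the 6 libraries, and the wild-type values lie near the floor of 3 counts (0.144 to 0.148 CPM in wild type).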

How the data were processed

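The authors deposited 1 table of expected counts per gene for 6 libraries, together with another column, the gene length in bases. Of the values 95.1% were whole within 1e-06. The submitters' processing notes name TopHat2 2.1.0, RSEM 2.1.30 and TAIR10, without the role of each. Strand setting and annotation release are not stated in these sources, so reads of overlapping genes cannot be told apart with certainty. ABF4, ABF1, ABA2, SRK2I and PYL7 also overlap genes on the other strand that are not in the deposited table.

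Expected counts, rounded, were fitted by genotype alone with edgeR 4.0.16 (R 4.3.3) after filterByExpr (minimum count 10, total 15) and TMM scaling, by robust quasi-likelihood. The two-sided p-values were adjusted by Benjamini-Hochberg over 19019 genes, with a threshold of 0.05. A standard error is the absolute log2 fold change over the root of F. Alternatives were DESeq2 1.42.0, other scalings and filters, a replicate block and each library left out.

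Members and lists were chosen with earlier results of these data known. By rule, values per library are given for called members, the smallest p in each role, NCED3, SRK2E, BGLU18 and ABCG40. Other genes given per library were added after their values were seen. Floors of 3 counts cover counting error only. Positions and upstream windows come from the TAIR10.1 annotation, since the table holds no coordinates. Of the 44 members, 3 had values that were not whole.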

Additional observations from a re-analysis of the deposited data

How the results depend on the processing

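The counts of 5 members higher and 1 lower were the same with median-of-ratios factors, with library totals alone, with no filter and with the stricter filter of 5 CPM in 3 libraries. DESeq2 called 5 higher and 2 lower, with 751 higher and 704 lower among all genes, against 474 and 374 in edgeR. With each library left out in turn, members called higher numbered 0 to 5, members called lower 0, all genes called higher 42 to 756 and all genes called lower 44 to 454. The largest of these, 756, was without pub2pub4 3. Without wild type 1 the only called member was ABCG25 and without wild type 3 they were ABCG25 and CYP707A2. PUB2 and PUB4 were called in every alternative run.

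With the replicate number as a block 4 members were higher and 1 lower, and 489 genes were higher and 577 lower; ABF3 missed the threshold (adjusted p 0.0569). The numbers were not taken as pairs because the labels do not state that they mark a shared batch. Deviations of same-numbered libraries correlated at 0.13, 0.06 and 0.15, and those of libraries with different numbers at -0.18 to 0.08. Of 6 libraries 5 correlated best with their own number. Whether the numbers mark pairs cannot be settled from these values.

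Of 37 tested members 11 changed sign in some alternative, and none of them was called in edgeR. SRK2B was at -0.0036 with median-of-ratios factors, -0.01 with library totals, -0.0041 in DESeq2 and -0.0029 under the stricter filter. ABA3 was at -0.0019, -0.01, -0.0025 and -0.0012 in the same order and at -0.01 with the block. With a library left out, log2 changes ran from -0.31 to 0.26 in CYP707A3, -0.15 to 0.13 in ABA3, -0.17 to 0.61 in BGLU18 and -1.18 to 0.40 in ABCG40. They ran from -0.15 to 0.05 in PYL9, -0.03 to 0.03 in SRK2B, -0.17 to 0.02 in AAO3, -0.05 to 0.13 in CYP707A1, -0.07 to 0.02 in SRK2I, -0.11 to 0.31 in SRK2H and -0.15 to 0.03 in ABA2. The cause was not tested. The 7 members left untested had 0 to 21 counts over all libraries and NCED5 had 67, and whether deeper libraries would change their results was not tested.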
